A study of Homo sapiens with 5 samples.

Results

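Among the regions that CLIP-Seq recovered with GFP-tagged dipeptide repeat proteins and their controls, 476 lay on a strand where the deposited annotation names no feature. They were chosen as all regions on chromosomes 1 to 22 and X whose same-strand RNA type is given as no feature, leaving out chromosome 21 between 8000000 and 9100000. They made up 15.1% of the 3147 regions in the 5 lists. In all, 547 regions carried that type, of which 5 lay in the excluded stretch and 66 on other chromosomes or contigs. The chosen regions are described here by what the annotation gives on their opposite strand.

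CLIP-Seq crosslinks RNA to protein in living cells with ultraviolet light and sequences the RNA that stays with the purified protein. All 5 libraries came from HEK-293 cells, a line of human embryonic kidney origin, irradiated with 100 mJ/cm2 at 254 nm and purified on anti-GFP beads for 1.5 hours. In experiment 1, 1 library came from cells transfected with GFP alone and 1 from cells transfected with GFP-(GR)50 (replicate 1), and lysates received 0.04 units/ml of RNase I. In experiment 2, 1 library each came from untransfected cells, cells transfected with GFP-(GP)10 and cells transfected with GFP-(GR)50 (replicate 2), and lysates received 0.02 units/ml. GFP-(GR)50 is GFP fused to 50 glycine-arginine repeats and GFP-(GP)10 is GFP fused to 10 glycine-proline repeats, dipeptides made from the C9ORF72 repeat expansion of ALS and FTD. The control libraries were taken from the same part of the gel as the fusion. Untransfected cells hold no GFP protein, so the 313 chosen regions of that list are RNA recovered on the beads without it. The lists hold recovered regions and no expression levels, so markers of HEK-293 cells were not checked.

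Most of the human genome outside genes consists of repeats. SINEs, chiefly Alu elements, are short retroelements derived from small RNAs. They are dense in introns, where they lie in either orientation. LINEs copy themselves through an RNA, and LTR elements are remains of retroviruses that prime their reverse transcription with a host tRNA, through a site complementary to its 3′ end. Simple repeats are runs of a short unit and have no strand of their own, although an annotation may record them on one. Nuclear DNA also holds copies of tRNA genes and of mitochondrial genes, and an annotation that leaves out such a copy gives no feature there.

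For 5 of the 476 regions, at 3 loci, the RefSeq promoter windows of GRCh38.p14 held the sequence. The windows at these loci are shown because the first is the most read locus shared by 3 lists, the second holds a copy of the same tRNA, and the third is a highly read region of GFP-(GR)50 replicate 2 with no repeat on its opposite strand. Each is printed 5′ to 3′ on the strand of the region, with the part inside the region in capitals and up to 50 bases on each side. Whether the deposited coordinates count from 0 or 1 is not given, so the capitals may start 1 base off. The loci are chr16:636702-636856 on the minus strand, chr2:70248932-70249043 on the minus strand and chr4:40516098-40516235 on the plus strand.
TRG-CCC2-2, GFP list: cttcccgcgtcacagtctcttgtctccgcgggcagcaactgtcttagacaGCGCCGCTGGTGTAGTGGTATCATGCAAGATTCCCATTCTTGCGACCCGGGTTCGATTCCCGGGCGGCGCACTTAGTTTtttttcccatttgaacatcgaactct
TRG-CCC2-1, GFP list: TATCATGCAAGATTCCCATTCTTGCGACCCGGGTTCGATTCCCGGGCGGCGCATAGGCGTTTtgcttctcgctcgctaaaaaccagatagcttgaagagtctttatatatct
opposite RBM47, GFP-(GR)50 replicate 2 list: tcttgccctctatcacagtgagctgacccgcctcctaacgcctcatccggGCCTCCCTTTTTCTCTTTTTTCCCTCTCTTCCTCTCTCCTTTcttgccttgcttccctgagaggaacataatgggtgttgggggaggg

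The windows at TRG-CCC2-2 and TRG-CCC2-1, genes of glycine tRNA with the anticodon CCC, shared a stretch of 53 bases. The TRG-CCC2-1 window starts inside its region and held 62 bases of the 79 bp. The stretch starts at that window edge, so its full length was not read. Both windows held the core of the B box inside tRNA genes, GGTTCGA followed by any base and TCC, on the strand of the region, and it lay in the capitals of each. This motif, searched on both strands, occurred in 29 of 35116 RefSeq promoter windows of 300 bases (0.0826%). Both windows lie over tRNA genes, so the motif in them follows from the choice of loci and is no separate finding. The region opposite RBM47, a gene for an RNA-binding protein, was made of C and T in 97.6% of the 42 bases in capitals, against 63.7% of its 300-base window. The motif was not in that window.

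In the GFP-(GP)10 list the region at TRG-CCC2-2 was shorter, with 43 bases inside the window against 79 with GFP and 74 with GFP-(GR)50 replicate 2. It covered the 3′ part, which is printed in capitals here.
TRG-CCC2-2, GFP-(GP)10 list: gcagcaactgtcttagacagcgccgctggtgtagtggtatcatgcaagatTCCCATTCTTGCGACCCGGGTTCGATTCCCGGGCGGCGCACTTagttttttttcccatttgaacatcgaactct

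The regions were numerous in experiment 2 and few in experiment 1. Of the regions on the same chromosomes, 313 of 1259 had no same-strand annotation in untransfected cells (24.9%, exact 95% interval 22.5 to 27.3), 34 of 271 with GFP-(GP)10 (12.5%, 8.85 to 17.1) and 102 of 769 with GFP-(GR)50 replicate 2 (13.3%, 10.9 to 15.9). In experiment 1 the counts were 19 of 427 with GFP (4.45%, 2.70 to 6.86) and 8 of 144 with GFP-(GR)50 replicate 1 (5.56%, 2.43 to 10.7). Each control has 1 library, so every test here compares the regions of a pair of lists and not the conditions, and the intervals cover counting error only. The share was 11.6 points lower with GFP-(GR)50 replicate 2 than in untransfected cells (two-sided Fisher's exact test, Benjamini-Hochberg adjusted p = 2.02e-09 over 12 tests). It was 0.718 points higher than with GFP-(GP)10 (adjusted exact p = 1.0), and 1.11 points higher with GFP-(GR)50 replicate 1 than with GFP (adjusted exact p = 0.866).

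Most of the regions held few reads. The deposited read value, which adds scaled multimapping reads to the uniquely mapping ones, had a median of 6.455 over the 476 regions, and 393 of them (82.6%) had at most 10. The lowest value listed is 5. By list the median was 10.8 with GFP, 7.055 with GFP-(GR)50 replicate 1, 6.51 in untransfected cells, 6.0 with GFP-(GP)10 and 6.3 with GFP-(GR)50 replicate 2. The highest single values were 424.5, 11.8, 42.0, 13.5 and 46.3 in the same order. Low values were not particular to these regions, since the other regions outside rRNA had medians of 11.5, 6.69, 6.22, 6.0 and 6.0 in that order. The regions took 10.9% of all listed reads in untransfected cells, 3.10% with GFP, 2.99% with GFP-(GP)10, 0.698% with GFP-(GR)50 replicate 2 and 0.108% with GFP-(GR)50 replicate 1. Listed reads sum to between 7468 and 134222 per list, and the sequencing depth behind them is unknown. These sums include scaled multimapping reads. Of the uniquely mapping reads alone, the regions took 24.1% in untransfected cells, 13.05% with GFP and 13.7% with GFP-(GP)10. With GFP-(GR)50 they took 8.49% in replicate 2 and 1.43% in replicate 1. The ratio between untransfected cells and GFP-(GR)50 replicate 2 was thus smaller by uniquely mapping reads than by all listed reads. Uniquely mapping reads made up 83.6% to 93.0% of the reads of these regions in 4 lists and 37.8% with GFP-(GR)50 replicate 1. In the other regions outside rRNA they made up 38.8% with GFP-(GR)50 replicate 1, 50.0% with GFP and 82.8% in untransfected cells. With GFP-(GP)10 and GFP-(GR)50 replicate 2 the values were 71.6% and 73.1%.

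What lay on the opposite strand differed between the experiments. Over all lists, 283 of the 476 regions (59.5%) lay opposite a SINE, 100 opposite a simple repeat or low-complexity sequence without a SINE, LINE or LTR, 26 opposite a LINE, 17 opposite an LTR element and 4 opposite a DNA element or satellite. The other 46 had no repeat there, and 33 (6.93%) had neither a repeat nor a gene. In experiment 2 SINEs led in each list. In experiment 1 they were opposite 2 of 27 regions, and LTR elements were opposite 8.

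**Figure D1:**
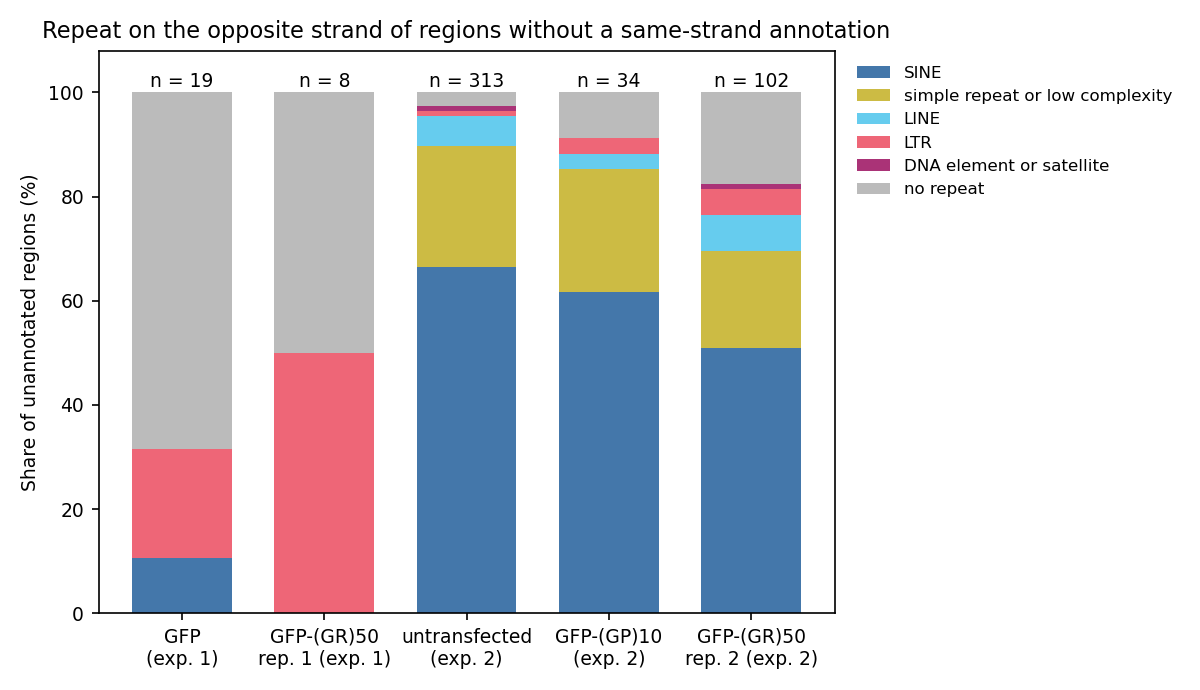
Share of the unannotated regions of each list (%, vertical axis) by the repeat recorded on their opposite strand, with the number of regions above each bar. SINE is the tallest segment in the 3 lists of experiment 2, and LTR or no repeat makes up most of both lists of experiment 1.

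SINEs were opposite 208 of 313 regions in untransfected cells (66.5%, exact 95% interval 60.9 to 71.7), 21 of 34 with GFP-(GP)10 (61.8%, 43.6 to 77.8) and 52 of 102 with GFP-(GR)50 replicate 2 (51.0%, 40.9 to 61.0). They were opposite 2 of 19 with GFP (10.5%, 1.30 to 33.1) and 0 of 8 with GFP-(GR)50 replicate 1, where 8 regions leave an upper bound of 36.9%. The GFP-(GR)50 mean of 25.5% ± 36.0 (SD, n = 2) therefore stands for a pair of libraries that lie far apart. The share with GFP-(GR)50 replicate 2 was 15.5 points below that in untransfected cells (adjusted exact p = 0.0263). It was 10.8 points below that with GFP-(GP)10 (adjusted exact p = 0.554), with intervals that overlap. The difference from untransfected cells no longer passed the test under 5 of 6 alternatives, with adjusted p up to 0.577, among them the one that counts the plus-strand regions described below. The remaining alternative, merging regions within 100 bp, changed no count.

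The deposited repeat column does not name Alu or other subfamilies. Most regions opposite a SINE had no gene opposite, 130 against 78 with one in untransfected cells and 34 against 18 with GFP-(GR)50 replicate 2. In GFP-(GP)10 the counts were 10 and 11. The untransfected regions were narrow around one length, with a median of 51.0 bp and quartiles of 46.0 and 56.0 bp. The other regions of that list outside rRNA had a median of 50.5 bp. Regions of protein-coding introns, which carry a same-strand gene, also lay mostly opposite SINEs in experiment 2, with 302 of 426 (70.9%) in untransfected cells, 55 of 75 (73.3%) with GFP-(GP)10 and 111 of 187 (59.4%) with GFP-(GR)50 replicate 2. Among all regions without a same-strand gene name on these chromosomes, 390 lay opposite a SINE and 15 lay in a SINE on their own strand.

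Genes lay opposite 175 of the 476 regions (36.8%). The share was 36.4% in untransfected cells (114 of 313), 36.3% with GFP-(GR)50 replicate 2 (37 of 102) and 50.0% with GFP-(GP)10 (17 of 34). GFP-(GR)50 replicate 2 differed from untransfected cells by -0.147 points (adjusted exact p = 1.0) and from GFP-(GP)10 by -13.7 points (adjusted exact p = 0.328). In experiment 1 the counts were 3 of 19 with GFP and 4 of 8 with GFP-(GR)50 replicate 1, a difference of 34.2 points (adjusted exact p = 0.328). Introns of protein-coding genes were opposite 83 regions in untransfected cells, 9 with GFP-(GP)10 and 24 with GFP-(GR)50 replicate 2, and exons opposite 4, 1 and 2.

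The opposite genes were many and each was met rarely. Of 151 gene names, 130 had a single region and 20 had regions from at least 2 lists. RBFOX1, a neuronal splicing regulator with very long introns, had 5 regions, all on the minus strand, with 3 of them in untransfected cells at 7.0 to 8.33 reads and those of GFP-(GR)50 replicate 2 at 7.0 and 19.0. RYR2, a calcium release channel of the heart, had 14.5 reads in untransfected cells and 5.0 with GFP-(GR)50 replicate 2 at 1 locus opposite a simple repeat. ARSH, MRC1, TSHZ2 and ZNF302 likewise had 1 region each in those lists, and the values of these genes lay between 5.0 and 8.63. The lists of cytosolic ribosomal proteins, histones, translation factors, hnRNP and SR proteins, nucleolar proteins and ALS or FTD genes each held 0 of the 151 names. The tRNA list held 1, tRNA-Ser-TCA(m). The same list held a region on the facing strand for 1 region, with GFP-(GR)50 replicate 2, and for none in the other lists.

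All 100 regions placed by a simple repeat or low-complexity sequence lay on the minus strand. The deposited annotation records these sequences on the plus strand alone. Over all regions of the 5 lists, 429 plus-strand and 0 minus-strand regions had one in the same-strand columns, and 252 minus-strand and 0 plus-strand regions had one in the opposite-strand columns. A region on the plus strand of such a repeat is therefore annotated, and the same region on the minus strand is not. The unannotated regions lay on the minus strand in 235 of 313 cases in untransfected cells (75.1%, exact 95% interval 69.9 to 79.8), 24 of 34 with GFP-(GP)10 (70.6%, 52.5 to 84.9) and 66 of 102 with GFP-(GR)50 replicate 2 (64.7%, 54.6 to 73.9). The other regions outside rRNA were on the minus strand in 42.9%, 47.8% and 48.3% of cases in the same lists.

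The plus-strand counterparts, regions whose sole same-strand annotation is a simple repeat or low-complexity sequence, numbered 134 in untransfected cells, 20 with GFP-(GP)10, 47 with GFP-(GR)50 replicate 2 and 0 in both lists of experiment 1. Counted together with the unannotated regions, the share on the minus strand was 52.6% in untransfected cells, 44.4% with GFP-(GP)10 and 44.3% with GFP-(GR)50 replicate 2. Over the 677 regions of all lists it was 49.8%. Leaving out every region opposite such a repeat instead, the share was 65.3% in untransfected cells (147 of 225), 61.5% with GFP-(GP)10 (16 of 26) and 53.8% with GFP-(GR)50 replicate 2 (42 of 78).

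**Figure D2:**
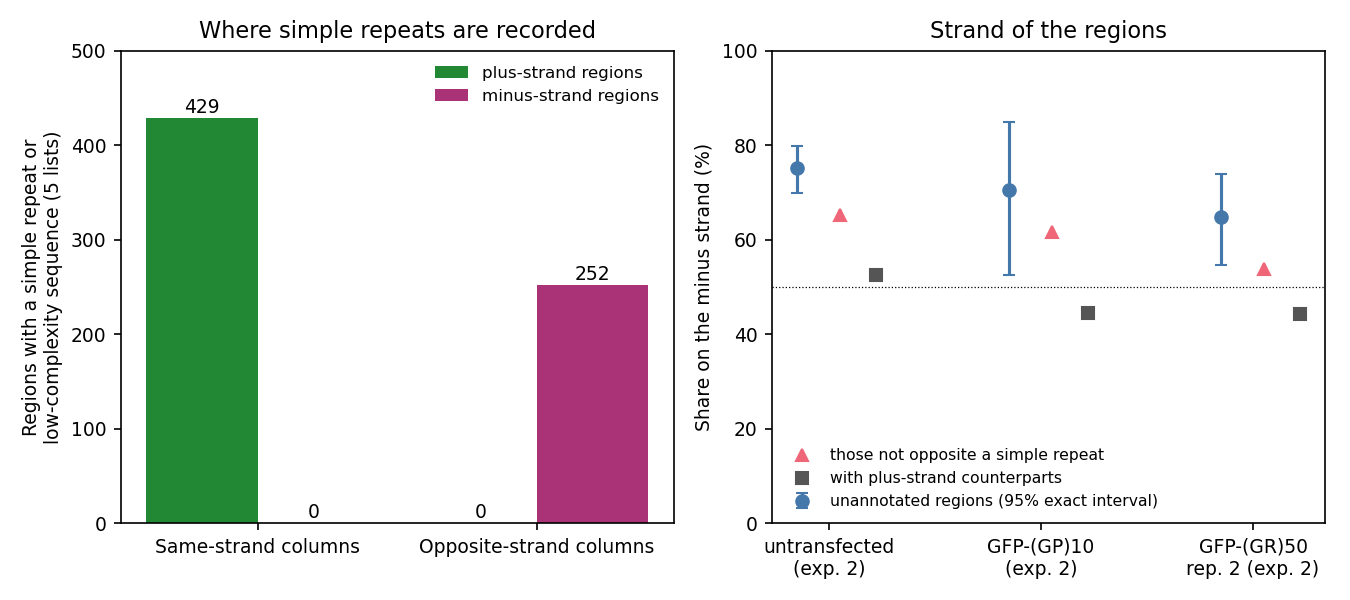
Left, number of regions over the 5 lists in which a simple repeat or low-complexity sequence is recorded in the same-strand or opposite-strand columns, by strand of the region. Right, share of regions on the minus strand (%) in each list of experiment 2 for the unannotated regions with exact 95% intervals, for those not opposite such a repeat, and with the plus-strand counterparts added, where the share lies between 44.3% and 52.6%.

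Of the simple-repeat loci, the most read in untransfected cells lay on chromosome 15 at 80151850 to 80151889 between ZFAND6 and FAH, with 42.0 reads, all uniquely mapping. In GFP-(GR)50 replicate 2 it was opposite LINC00486, a long noncoding RNA, at chromosome 2, 32916553 to 32916637. That locus had 46.3 reads with GFP-(GR)50 replicate 2, 11.0 in untransfected cells and 5.0 with GFP-(GP)10, with 46, 11 and 5 uniquely mapping. As a share of all listed reads these were 0.0345% (exact 95% interval 0.0251 to 0.0457), 0.0488% (0.0244 to 0.0874) and 0.0670% (0.0217 to 0.156). GFP-(GR)50 replicate 2 was thus highest in reads and lowest in share of all listed reads, and the intervals of the shares overlap. The 5.0 reads with GFP-(GP)10 equal the lowest listed value, so no region listed there can have a share below 0.0670%. The totals of listed reads include scaled multimapping reads. Uniquely mapping reads alone sum to 9229 with GFP-(GR)50 replicate 2, 8606 in untransfected cells and 1522 with GFP-(GP)10. Against these totals, the uniquely mapping reads of the locus were highest in share with GFP-(GR)50 replicate 2.

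Among the 8 LTR regions of experiment 1, 6 were 21 to 22 bp wide and the other two, both from GFP-(GR)50 replicate 1, were 36 and 41 bp. Their reads ranged from 18.8 to 424.5 with GFP and from 6.0 to 11.8 with GFP-(GR)50 replicate 1. On the minus strand of chromosome 1, 171600929 to 171600951, a region of 22 bp opposite an exon of MYOCOS held 424.5 reads with GFP and 6.0 with GFP-(GR)50 replicate 1, where it was 21 bp. This is 44.8% of the reads of the unannotated regions of the GFP list, and 1.39% of all its listed reads (exact 95% interval 1.26 to 1.52) against 0.0106% (0.00389 to 0.0231) with GFP-(GR)50 replicate 1. On the minus strand of chromosome 19, 57513043 to 57513064, a region of 21 bp opposite an exon of ZNF773, a zinc finger gene, held 88.0 reads with GFP and 8.0 with GFP-(GR)50 replicate 1, all uniquely mapping. Both loci were higher with GFP, and neither was listed in experiment 2. GFP also had a 22 bp region with 38.4 reads, 5 of them uniquely mapping, on chromosome 5 and one of the same width with 18.8 reads on chromosome 1.

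Widths of at most 30 bp were found in 6 of 8 LTR regions and 4 of 19 other regions of experiment 1, and in 1 of 9 LTR regions and 11 of 440 others of experiment 2. Regions annotated as tRNA, numbering 230 with GFP, 4 with GFP-(GR)50 replicate 1, 7 in untransfected cells, 68 with GFP-(GP)10 and 40 with GFP-(GR)50 replicate 2, included none of at most 30 bp, and their median widths lay between 47.0 and 68.0 bp. No sequence of the LTR regions was read here, and a match of them to tRNA was not tested.

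**Figure D3:**
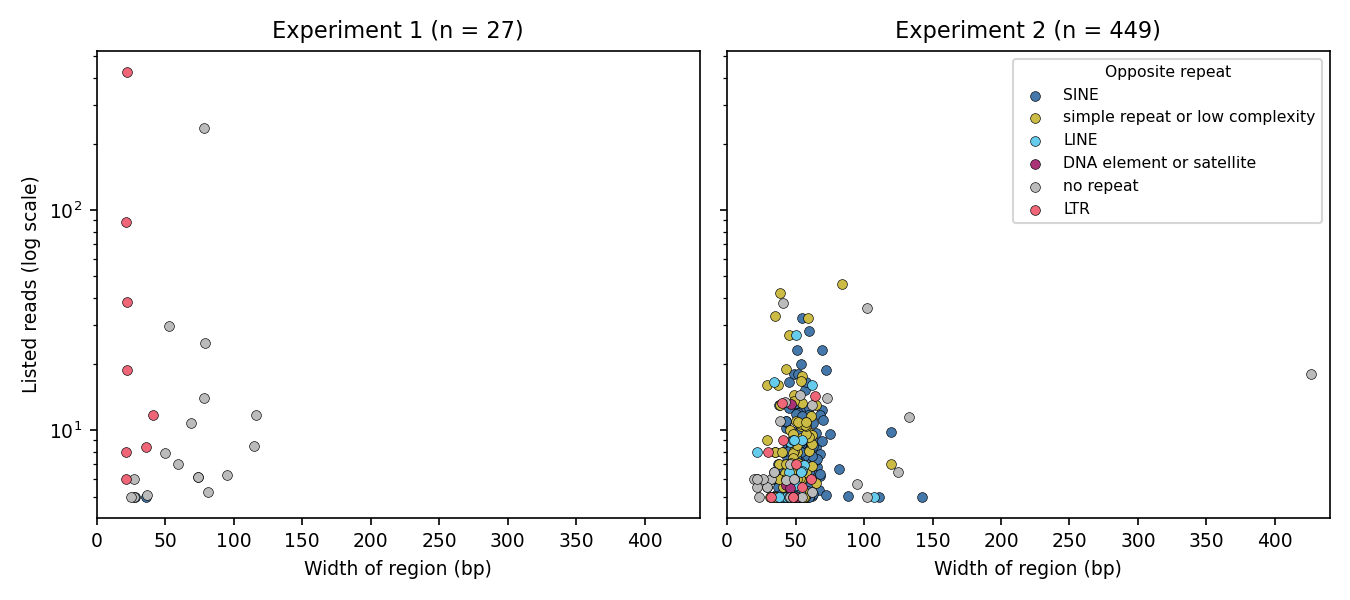
Width (bp) against listed reads (log scale) of the 27 unannotated regions of experiment 1 and the 449 of experiment 2, coloured by the repeat on the opposite strand. In experiment 1, 6 of the 8 LTR regions form a column at 21 to 22 bp that reaches 424.5 reads, and in experiment 2 most points lie below 20 reads near 50 bp.

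The regions with neither a gene nor a repeat opposite made up 12 of 19 with GFP (63.2%, exact 95% interval 38.4 to 83.7), 2 of 8 with GFP-(GR)50 replicate 1 (25.0%, 3.19 to 65.1), 6 of 313 in untransfected cells (1.92%, 0.707 to 4.13), 2 of 34 with GFP-(GP)10 (5.88%, 0.720 to 19.7) and 11 of 102 with GFP-(GR)50 replicate 2 (10.8%, 5.51 to 18.5). The share with GFP-(GR)50 replicate 2 was 8.87 points above that in untransfected cells (adjusted exact p = 0.00239). The call was lost under 2 of 6 alternatives, with adjusted p up to 0.264. Of these, 1 adds the plus-strand counterparts, whose simple repeat is never recorded opposite them. They can count as having neither, while matching minus-strand regions cannot, so that setting cannot decide on this share. Among the alternatives that kept the call, merging regions within 100 bp changed no count. The differences of 4.90 points from GFP-(GP)10 (adjusted exact p = 0.775) and of -38.2 points between GFP-(GR)50 replicate 1 and GFP (adjusted exact p = 0.310) did not pass.

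Several of these regions were not without a gene in RefSeq. By the RefSeq gene table of GRCh38.p14, which gives no strand here, 15 of the 476 regions lay over a tRNA gene, a vault RNA gene or a mitochondrial-like pseudogene, and they held 406 reads, 8.80% of the reads of all unannotated regions. Of these, 9 were among the 19 regions of GFP, 4 among the 102 of GFP-(GR)50 replicate 2, 1 each with GFP-(GR)50 replicate 1 and GFP-(GP)10, and 0 among the 313 of untransfected cells. In GFP they took 36.7% of the reads of its unannotated regions.

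Among the tRNA loci, TRG-CCC2-2, whose sequence is printed above, had 235.5 reads with GFP, 13.5 with GFP-(GP)10 and 14.0 with GFP-(GR)50 replicate 2, of which 217, 13 and 11 mapped uniquely. The shares of all listed reads were 0.770% (exact 95% interval 0.676 to 0.876), 0.181% (0.103 to 0.314) and 0.0104% (0.00570 to 0.0175). The order is GFP, GFP-(GP)10 and then GFP-(GR)50 replicate 2, with intervals that do not overlap, but GFP comes from the other experiment with another RNase I amount. Any region listed with GFP-(GP)10 has at least 0.0670% of its listed reads, above the share with GFP-(GR)50 replicate 2 here. The second glycine gene, TRG-CCC2-1, had 25.0 reads with GFP, of which 4 mapped uniquely. Also with GFP, TRY-GTA5-4 for tyrosine had 29.7 reads, TRL-TAG3-1 for leucine 10.8, TRC-GCA14-1 for cysteine 7.9 and TRA-CGC3-1 for alanine 7.0. Of these, 4, 0, 7 and 7 mapped uniquely, so most reads at the tyrosine locus and all at the leucine locus are not assigned to that copy. VTRNA1-2, a vault RNA, a short RNA of the large vault particle, had 14.0 reads with GFP, where the type column gave no feature although the gene was named. In GFP-(GR)50 replicate 2 the same locus was annotated as a small RNA, with 5.0 reads.

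The mitochondrial-like loci had few or no uniquely mapping reads. MTND2P28, a nuclear copy of a mitochondrial gene, had 11.8 reads with GFP and 11.5 with GFP-(GR)50 replicate 2, with 0 unique in both. MTRNR2L9, a nuclear copy of mitochondrial rRNA, had 6.25 with GFP, 6.11 with GFP-(GR)50 replicate 1 and 6.5 with GFP-(GR)50 replicate 2, with 1, 0 and 0 unique. A region on chromosome 7, 45252028 to 45252109, had 5.25, 6.11 and 6.5 reads in the same lists and no unique read, so both GFP-(GR)50 lists gave the pair of loci equal values. Such reads could come from any copy, and their source was not tested. In GFP-(GR)50 replicate 2 a region at MTCO2P12, a copy of a mitochondrial oxidase gene, had 6.5 reads, 0 of them unique. It lay opposite the microRNA hairpin MIR12136 at chr1:632615-632685 on the minus strand. The hairpin is printed because the annotation places tRNA-Ser-TCA(m) on that same strand, and the 54 bases in capitals faced the region.
MIR12136, RefSeq GRCh38.p14: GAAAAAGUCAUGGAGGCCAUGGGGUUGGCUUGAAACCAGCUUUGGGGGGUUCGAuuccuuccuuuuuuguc

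Beside these named copies, the widest of all unannotated regions lay on chromosome 11, 10509204 to 10509630, with GFP-(GR)50 replicate 2, next to MTRNR2L8. It was 426 bp wide and held 18.0 reads, 0 of them unique. A region next to MTRNR2L12 on chromosome 3 had 14.5 reads with GFP-(GR)50 replicate 2 and 5.95 in untransfected cells, again with 0 unique. In all, 3 regions of GFP, 3 of GFP-(GR)50 replicate 1, 7 of untransfected cells, 0 of GFP-(GP)10 and 6 of GFP-(GR)50 replicate 2 had no unique read.

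Few unannotated loci were found in more than 1 list. There were 45 such loci, 33 in 2 lists and 12 in 3. Of the regions in untransfected cells, 32 of 313 (10.2%) overlapped a region of GFP-(GR)50 replicate 2 by at least 1 bp on the same strand, against 14.5% of all its regions. In the other direction 33 of 102 did (32.4%), against 23.5%. GFP-(GP)10 shared 10 of 34 with GFP-(GR)50 replicate 2 (29.4%, against 36.5% of all its regions) and 12 of 34 with untransfected cells (35.3%, against 35.4%). In the other direction GFP-(GR)50 replicate 2 shared 10 of 102 with GFP-(GP)10 (9.80%, against 12.9%), and untransfected cells 12 of 313 (3.83%, against 7.55%).

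In experiment 1 GFP-(GR)50 replicate 1 shared 4 of 8 with GFP (50.0%, against 44.4%), and GFP 4 of 19 (21.1%, against 15%). The GFP-(GR)50 libraries shared 4 of 8 regions of replicate 1 (50.0%, against 77.1%) and 4 of 102 of replicate 2 (3.92%, against 14.3%). For the other regions outside rRNA the shares were 60.0% and 5.78%. The regions of untransfected cells overlapped 0 regions of GFP, against 5.8% of all their regions, and 0 of GFP-(GR)50 replicate 1, against 2.94%. Conversely, 0 of 19 GFP regions (against 17.8%) and 0 of 8 of GFP-(GR)50 replicate 1 (against 25.7%) were listed in untransfected cells. GFP shared 5 of 19 with GFP-(GR)50 replicate 2 (26.3%, against 32.6%) and 1 of 19 with GFP-(GP)10 (5.26%, against 23.2%). GFP-(GP)10 shared 1 of 34 with GFP (2.94%, against 36.5%) and 0 of 34 with GFP-(GR)50 replicate 1 (against 9.96%), which shared 0 of 8 with it (against 19.4%). GFP-(GR)50 replicate 2 shared 4 of 102 with GFP (3.92%, against 18.1%). With any other list, 7 of 19 GFP regions overlapped (36.8%, against 44.5%), 6 of 8 of GFP-(GR)50 replicate 1 (75.0%, against 81.9%), 35 of 313 of untransfected cells (11.2%, against 17.2%), 13 of 34 of GFP-(GP)10 (38.2%, against 59.4%) and 39 of 102 of GFP-(GR)50 replicate 2 (38.2%, against 40.7%). Among the other regions outside rRNA, the share was 39.0%, 67.3%, 17.2%, 60.3% and 33.5% in the same order. The values of the unannotated regions lie below those of all regions in the 5 lists, but in both GFP-(GR)50 lists they lie above those outside rRNA, and neither difference was tested.

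Of the 33 loci listed in both untransfected cells and GFP-(GR)50 replicate 2, 25 had more reads in untransfected cells, with a median ratio of 1.4 (range 0.237 to 4.97), and 22 of the 45 shared loci lay opposite a SINE. The 9 loci found in all 3 lists of experiment 2 each had more reads in untransfected cells than with GFP-(GR)50 replicate 2, except that opposite LINC00486. At the SINE opposite an intron of DNAH2, a dynein heavy chain of cilia, the reads were 32.3 in untransfected cells, 6.83 with GFP-(GP)10 and 16.6 with GFP-(GR)50 replicate 2. At the SINE opposite FANCC, a member of the Fanconi anaemia DNA repair complex, they were 15.3, 5.31 and 11.6, and at that opposite TMCO2 20.1, 11.8 and 6.53. Untransfected cells had the most reads at each of them. As a share of all listed reads, GFP-(GP)10 was highest at 7 of the 9 loci, among them those opposite TMCO2 (0.158% against 0.0892% in untransfected cells) and FANCC (0.0711% against 0.0678%), with intervals that overlap at both. The share was lowest with GFP-(GR)50 replicate 2 at all 9. The totals of listed reads include scaled multimapping reads, and against uniquely mapping reads alone this did not hold opposite LINC00486. The lowest listed value of 5 reads is already 0.0670% of the 7468 listed reads of GFP-(GP)10. At these 9 loci no share with GFP-(GR)50 replicate 2 was above 0.0345%, at 46.3 reads. Its rank below GFP-(GP)10 was thus set by the unequal totals, and these orders cannot show a difference in recovery. The simple repeats opposite POC1B-AS1, an antisense RNA gene, and TAFA1, a secreted protein, had 32.3, 13.1 and 6.5 reads and 17.7, 6.0 and 5.25 reads.

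Of those 9 loci, 2 had no gene opposite in the deposited annotation. One on chromosome 11, 70052531 to 70052600, inside ANO1 by RefSeq, had 23.2 reads in untransfected cells, 5.05 with GFP-(GP)10 and 7.17 with GFP-(GR)50 replicate 2. The other, between INSR and ARHGEF18 on chromosome 19, had 18.8, 6.5 and 8.94. Opposite AL356010.2 the values were 5.67, 5.0 and 5.0, all near the lowest listed value. These reads are not scaled to depth, and the lists of experiment 2 sum to 22519, 7468 and 134222 reads in the same order.

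**Figure D4:**
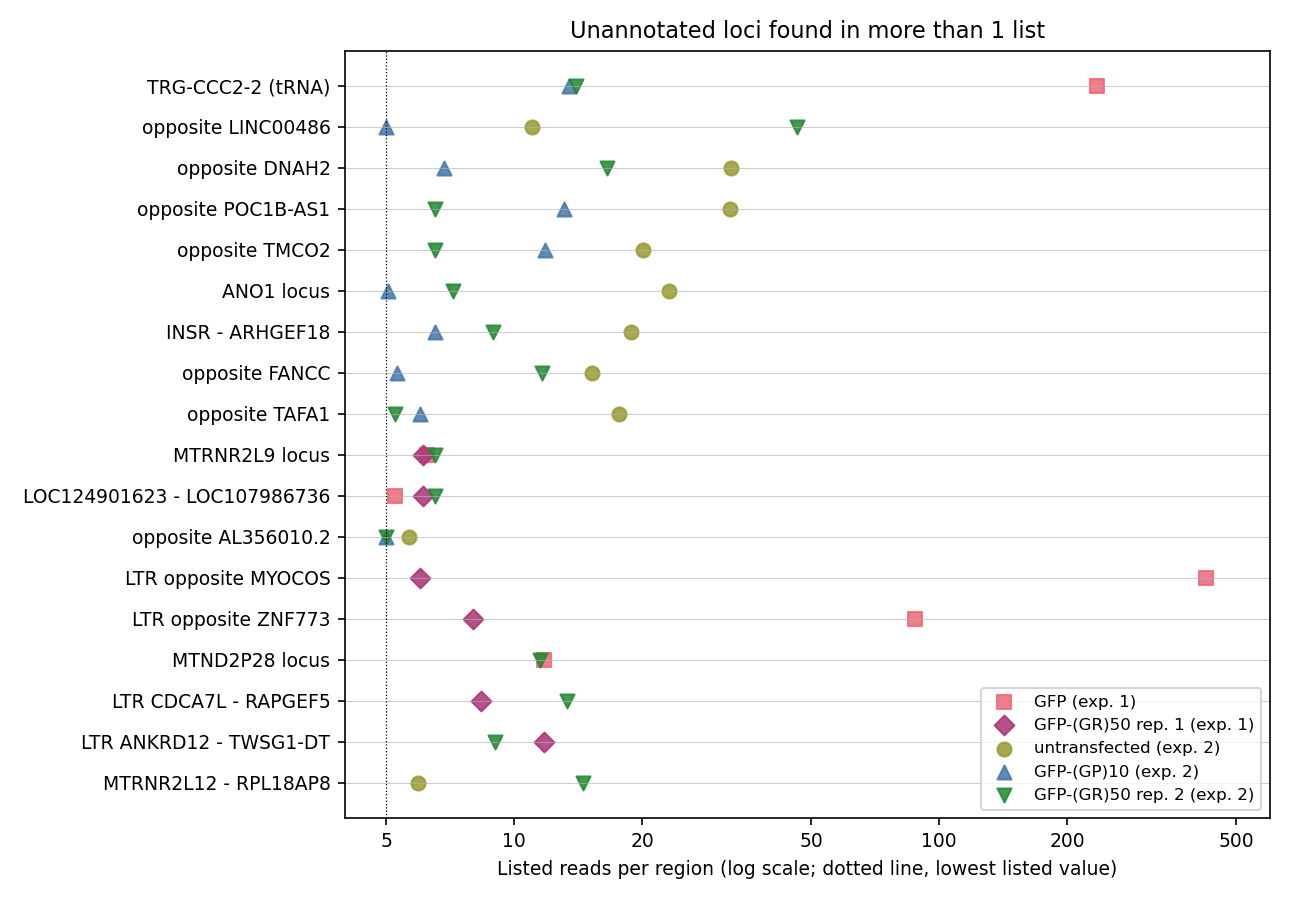
Listed reads (log scale) of unannotated loci found in more than 1 list, with 1 point for each list that holds the locus. In reads not scaled to depth, untransfected cells are highest at most loci that all 3 lists of experiment 2 hold. By share of listed reads GFP-(GP)10 is highest at 7 of those 9, but its lowest listed value of 5 reads is already 0.0670%. The loci opposite MYOCOS and ZNF773 and at TRG-CCC2-2 are highest with GFP.

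Both GFP-(GR)50 lists held 4 unannotated loci, and 2 of them were in no control list. Both lay opposite an LTR element and had neither a gene opposite nor one in RefSeq. The first, on the minus strand of chromosome 18 from 9296922 to 9296964 between ANKRD12 and TWSG1-DT, had 11.8 reads in replicate 1 and 9.03 in replicate 2, with 2 unique in each. The second, on the minus strand of chromosome 7 from 22090399 to 22090439 between CDCA7L and RAPGEF5, had 8.38 and 13.3 reads, with 0 and 8 unique. With at least 5 unique reads required, no unannotated region of replicate 1 overlapped a region of replicate 2.

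Another region of replicate 1 had 8.5 reads, 1 of them unique, opposite an intron of MYO1D, an unconventional myosin. In replicate 2 the region opposite RBM47, with its C and T stretch, had 38.0 reads and a region between GPNMB and MALSU1 on chromosome 7, 23286203 to 23286305, had 36.0, all uniquely mapping. The latter had neither a gene nor a repeat on its opposite strand.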

How the data were processed

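The submitters' processing notes name the build hg38 (GRCh38.p13) and the tools featureCounts 2.0.2, bedtools 2.30.0, UMI-tools 1.1.2 and Novoalign 4.03.03, with no role or order. The deposited uniquely mapping reads are counts, with 6 values in GFP-(GR)50 replicate 2 that are not whole and were taken for expected counts. The deposited reads with scaled multimappers are expected counts per the file headers, and the authors did not normalise them for depth. The sources used here do not give how regions were called.

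Regions were read with pandas 2.3.3, and a region with several opposite repeats counted as SINE first. Shares have exact Clopper-Pearson 95% intervals. The 4 measures in 3 comparisons within experiments gave 12 two-sided Fisher's exact tests (scipy 1.17.1), adjusted by Benjamini-Hochberg with a threshold of 0.05. The overlap, interval and adjustment steps were tested on simulated data, and the exact test itself was not. Overlap needed 1 bp on the same strand. RefSeq tables of GRCh38.p14 served for names, neighbours and sequences, and no genome was used. Up to 12 shared loci by number of lists and reads, the 3 most read and 2 most uniquely read regions of each list, and up to 10 opposite genes were named, and further regions and genes were chosen after their values were seen. The members and lists were chosen with earlier results of these data known. Regions that are copies of each other share reads, so p-values can be too small. Some regions that the naming rule selects are not reported here.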

Additional observations from a re-analysis of the deposited data

How the results depend on the processing

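Of 78 tested values under alternative settings, 60 kept their direction and side of the threshold, 8 turned, 7 lost their call and 3 showed no difference. Merging regions within 100 bp changed no count, and experiment 1 had 0 plus-strand counterparts. The values under merging, and those of experiment 1 with counterparts, therefore repeated the main ones and are among the 60. Of 27 values without a test, 25 moved by less than their spread or interval. The lower share of unannotated regions in GFP-(GR)50 replicate 2 than in untransfected cells kept its call under all 8 alternatives (-16.1 to -10.1 points). The settings that count plus-strand counterparts or leave out RefSeq tRNA, vault and mitochondrial-like loci were added after seeing the data. The share opposite a SINE, GFP-(GR)50 replicate 2 less untransfected cells, lost its call at -28.3 points with at least 10 reads (adjusted exact p = 0.158), -7.27 with at least 5 unique reads (adjusted exact p = 0.577), -11.8 with equal numbers of top regions (adjusted exact p = 0.435), -10.7 with counterparts (adjusted exact p = 0.170) and -13.4 without the RefSeq loci (adjusted exact p = 0.0888). The share with neither gene nor repeat lost its call at 4.15 points with at least 5 unique reads (adjusted exact p = 0.264) and 5.82 with counterparts (adjusted exact p = 0.216). With counterparts the count in untransfected cells went from 6 of 313 to 37 of 447. This follows in part from the definition, since the repeat of a counterpart is never recorded opposite it, so that setting cannot decide on this share. Directions turned, none of them past the threshold, for the share of the list between GFP-(GR)50 replicate 1 and GFP (-2.70 with at least 10 reads, -1.73 with at least 5 unique reads), and between replicate 2 and GFP-(GP)10 (-2.80 with at least 5 unique reads, -0.550 with counterparts). They also turned for the share opposite a gene between replicate 1 and GFP (-30.0 with at least 10 reads) and between replicate 2 and untransfected cells (1.23 with at least 5 unique reads, 0.447 with counterparts), and for the share with neither between replicate 2 and GFP-(GP)10 (-3.26 with at least 10 reads). The overlap between the GFP-(GR)50 lists fell to 0 in both directions with at least 5 unique reads. The stricter settings hold fewer regions, and the cause was not tested. Leaving out 1 library, the GFP-(GR)50 share opposite a SINE was 0 or 51.0%. SINE subfamilies and matches by sequence to other RNAs were not run, since the repeat column names no subfamily and no genome was used. No paired analysis was possible because each control has a single library. With a lowest listed value of 5 reads and unknown depth, a locus missing from a list is not shown to be unbound.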
